A study of Homo sapiens with 16 samples.

Results

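Apolipoproteins are the protein coat of lipoprotein particles, and liver cells make and secrete most of them. The 10 genes described here are the carriers and neighbours of glycosylphosphatidylinositol-specific phospholipase D (GPI-PLD), an enzyme that cleaves the lipid anchor of surface proteins and circulates on apolipoprotein A particles. They were chosen by symbol: APOA1, APOA2, APOB, APOC1, APOC3, APOE, APOH, APOM, MTTP and LCAT. The array carried 17 probe sets for these 10 genes, out of 22215 probe sets outside the controls and 11963 genes with a single symbol. All 10 genes were bright enough to be among the 8102 genes tested, each read by its brightest probe set.

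Expression was measured on 16 Affymetrix arrays of HepG2, a human hepatoma cell line, with 10 µg of total RNA per array. The groups were cells with GPI-PLD or LacZ adenovirus, cultured for 12 h or 6 h, with 4 arrays each. The labels' descriptions give the time as hours of culture, not as time since infection. LacZ encodes beta-galactosidase and served as the control. Every group carried an adenovirus, and no group without virus was analysed here. HepG2 is 1 cell line, and no label states that a group's arrays are separate cultures. The p-values below therefore rest on array-to-array spread, which may be technical. Replicate numbers follow the deposited order and pair nothing.

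Lipoprotein assembly begins when the microsomal triglyceride transfer protein, encoded by MTTP, loads lipid onto apolipoprotein B as it enters the endoplasmic reticulum. Apolipoproteins A-I and A-II form the frame of high-density lipoprotein, where lecithin-cholesterol acyltransferase (LCAT) esterifies cholesterol. The C apolipoproteins and apolipoprotein E move between particles and govern how fast lipases and receptors clear them.

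All 7 hepatocyte markers passed the brightness filter, led by ALB with a mean signal of 85990 and AFP with 72933, and their summed signal was 310581 to 360674 in GPI-PLD 12 h cells, 305698 to 330462 in LacZ 12 h cells, 297536 to 338640 in GPI-PLD 6 h cells and 285268 to 319410 in LacZ 6 h cells. None of the 5 macrophage markers passed (CSF1R 187 and CD163 162 were the brightest). Of the endothelial markers 1 of 4 passed, PECAM1 at 286, with TEK next at 138 and CDH5 at 20.2. Of the fibroblast markers 3 of 4 passed, led by COL1A1 at 774 and COL1A2 at 367, with LUM at 8.44. The erythroid marker on the array, HBB, averaged 480. GPLD1, the gene of GPI-PLD, was not called by limma on any of its 5 probe sets. Its brightest probe set averaged 328 in GPI-PLD cells and 319 in LacZ cells at 12 h (log2 difference 0.12 ± 0.32, SE), and 284 and 261 at 6 h (0.02 ± 0.32). The dimmest GPLD1 probe set, below the brightness filter, averaged 71.6 in GPI-PLD cells and 25.1 in LacZ cells at 6 h (0.60 ± 0.22, limma unadjusted p = 0.0122, adjusted p = 0.9998), with 3 of 4 GPI-PLD arrays above all LacZ arrays, and 37.9 and 32.9 at 12 h (0.07 ± 0.22). Whether these probes lie within the sequence carried by the virus is not given in the sources used here, so these values do not check the virus labels. The mean correlation of each GPI-PLD 12 h array with the rest of its group was 0.937 to 0.939 over probe sets outside the controls. In the other groups these means were 0.948 to 0.958.

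Signals of different probe sets are not comparable as levels, so each gene is given by its own range. APOA2 had signals of 68791 to 88134 over the 16 arrays, with a median of 74773. APOH ranged between 62243 and 77480 (median 68528), APOB between 45116 and 54760 (median 51346), and APOE between 11769 and 24849 (median 18918). LCAT was the least steady, between 78.4 and 508 with a median of 270.1, a 6.48-fold range, against a 1.21-fold range for APOB. The spread between arrays of a group, as a standard deviation of log2 signal, was 0.07 for APOB, 0.08 for APOH, 0.10 for APOA2 and 0.10 for APOC1. Only 0.543%, 1.33%, 3.84% and 4.02% of the tested genes had a smaller spread than these 4 genes in turn, and the median over all tested genes was 0.24. These shares are over tested genes of any brightness, and whether bright signals spread less was not tested. APOM, APOC3, APOA1 and MTTP had standard deviations of 0.15, 0.18, 0.19 and 0.22. APOE (0.35) and LCAT (0.59) scattered more than the median gene. These values belong to the brightest probe sets. The other APOE probe sets had 0.27 and 0.24, and the second APOC1 probe set had 0.20.

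**Figure D1:**
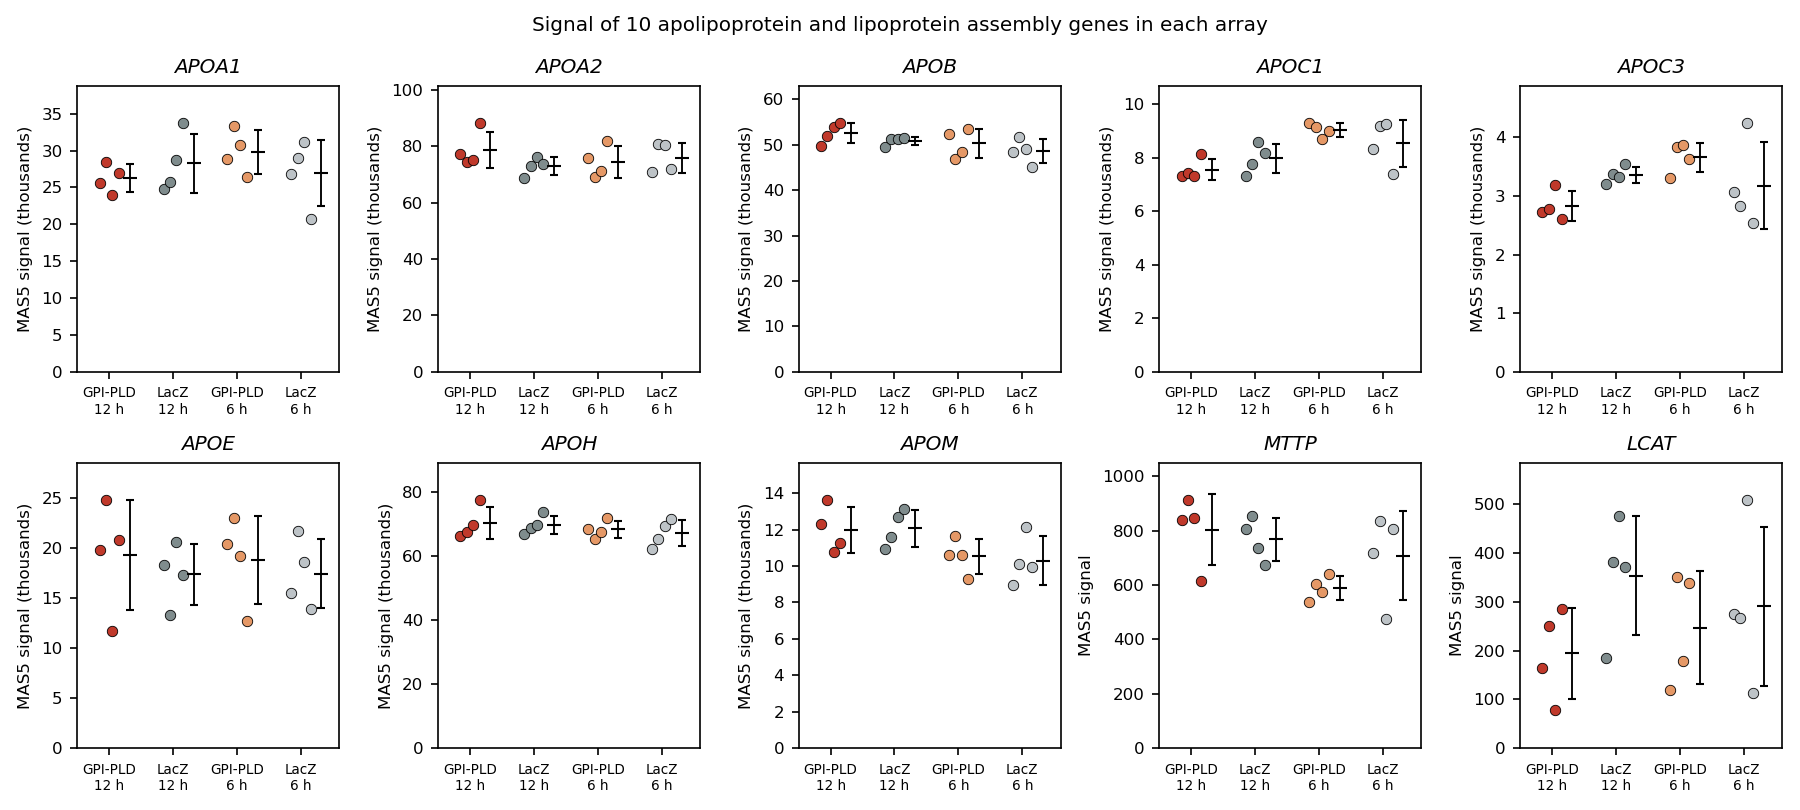
MAS5 signal (linear scale, vertical axes from 0, some divided by 1000) of each gene's brightest probe set in each of the 16 arrays, by virus and time, with the group mean and SD (n = 4) as bars. APOB keeps within 45116 to 54760 in every array, the 4 APOC1 arrays of GPI-PLD 12 h (7300 to 8136) lie below the 4 of GPI-PLD 6 h (8687 to 9287), and LCAT overlaps between all groups.

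The first comparison asked what GPI-PLD virus did to these genes relative to LacZ virus at the same time. None of the 10 genes was called at 12 h or at 6 h, and none in the mean of both times (limma, Benjamini-Hochberg adjusted p under 0.05 over 8102 genes). Over all tested genes the called share was likewise 0% in each of the 3 comparisons. At an unadjusted p under 0.05, 1 of the 10 genes passed at 12 h (584 of all genes, 7.21%), 0 passed at 6 h (376 of all genes, 4.64%) and 0 passed in the mean of both times (340 of all genes, 4.20%). Limma without the trend and robust options also called 0 of the 10, and 0 of all genes at 12 h and 2 at 6 h. At 12 h 5 genes stood higher and 5 lower, with a median log2 difference of 0.00 against 0.01 over all genes. At 6 h 7 stood higher and 3 lower, with a median of 0.04 against 0.00. All log2 differences are on the scale of log2(signal + 63), which understates changes of dim genes. In bulk RNA of this kind, fewer cells making a transcript and less transcript per cell cannot be told apart.

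APOA1 encodes apolipoprotein A-I, the main protein of high-density lipoprotein and the partner on which GPI-PLD circulates. At 12 h its signals were 25558, 28423, 23953 and 27009 in GPI-PLD cells, against 24809, 25732, 28767 and 33702 in LacZ cells. At 6 h they were 28807, 33344, 30786 and 26359 in GPI-PLD cells, against 26832, 29023, 31227 and 20734 in LacZ cells. The groups overlapped at both times, with 1 LacZ array standing high at 12 h and 1 standing low at 6 h. The log2 differences were -0.10 ± 0.11 (SE) at 12 h (limma adjusted p = 0.866) and 0.16 ± 0.11 at 6 h (limma adjusted p = 0.998). The 95% intervals reached no further than 1.26-fold at 12 h and 1.31-fold at 6 h. APOA2, the second protein of high-density lipoprotein, averaged 78727 ± 6380 in GPI-PLD cells and 72984 ± 3118 in LacZ cells at 12 h (SD, n = 4 each). At 6 h it averaged 74460 ± 5578 in GPI-PLD cells and 75977 ± 5304 in LacZ cells. Its log2 differences of 0.11 and -0.03 had intervals within 1.19-fold and 1.13-fold.

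APOB, the structural protein of very low and low density lipoprotein, had 12 h signals of 49791, 51971, 54016 and 54760 in GPI-PLD cells, against 49641, 51389, 51302 and 51434 in LacZ cells. At 6 h it had 52466, 46881, 48339 and 53539 in GPI-PLD cells, against 48487, 51783, 49190 and 45116 in LacZ cells. The groups overlapped at both times. The log2 difference was 0.05 ± 0.06 at 12 h and 0.05 ± 0.06 at 6 h, and the 95% intervals ran from -0.08 to 0.18 at each time, which leaves room for a rise of up to 1.13-fold. MTTP, which lipidates apolipoprotein B, averaged 803 ± 131 in GPI-PLD cells and 768 ± 80.1 in LacZ cells at 12 h, and 589 ± 43.7 and 708 ± 162 at 6 h (SD, n = 4 each). Its log2 differences were 0.05 ± 0.17 at 12 h and -0.22 ± 0.17 at 6 h, with intervals reaching 1.32-fold and 1.48-fold.

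APOC3 encodes apolipoprotein C-III, which slows the breakdown and uptake of triglyceride-rich particles. At 12 h its signals were 2731, 2785, 3192 and 2604 in GPI-PLD cells, against 3197, 3378, 3327 and 3537 in LacZ cells. Every GPI-PLD array lay below every LacZ array, though the nearest pair, 3192 and 3197, almost touched. At 6 h the signals were 3310, 3830, 3862 and 3631 in GPI-PLD cells, against 3070, 2836, 4240 and 2547 in LacZ cells. There the GPI-PLD arrays lay inside the LacZ range, which a single LacZ array at 4240 set at its upper end. The log2 difference was -0.25 ± 0.12 at 12 h (limma unadjusted p = 0.0475, adjusted p = 0.685) and 0.23 ± 0.12 at 6 h (limma adjusted p = 0.998). APOC3 was the 1 gene of the 10 whose arrays did not overlap at 12 h, against 3.99% of all tested genes, and there was none at 6 h, against 3.02%.

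Apolipoprotein C-I, encoded by APOC1, inhibits cholesteryl ester transfer protein. APOC1 averaged 7547 ± 396 in GPI-PLD cells and 7971 ± 538 in LacZ cells at 12 h, and 9029 ± 258 and 8536 ± 877 at 6 h (SD, n = 4 each). The log2 differences of -0.08 ± 0.08 at 12 h and 0.09 ± 0.08 at 6 h had intervals within 1.18-fold and 1.19-fold. APOE, the ligand by which remnant particles bind their receptors, averaged 19329 ± 5483 in GPI-PLD cells and 17399 ± 3057 in LacZ cells at 12 h. At 6 h it averaged 18830 ± 4387 in GPI-PLD cells and 17440 ± 3452 in LacZ cells. Its differences of 0.12 ± 0.23 and 0.10 ± 0.23 had 95% intervals of -0.37 to 0.61 and -0.39 to 0.59. Of the 10 genes, each on its brightest probe set, APOE and LCAT thus had the widest limits. In the fit of all probe sets, the other APOE probe sets had smaller errors at 12 h, ± 0.15 and ± 0.14, than the brightest (± 0.20).

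APOM encodes apolipoprotein M, a carrier of sphingosine 1-phosphate on high-density lipoprotein, and APOH encodes beta-2-glycoprotein I, a phospholipid-binding plasma protein. The differences of APOM were -0.01 ± 0.10 at 12 h and 0.04 ± 0.10 at 6 h, with intervals within 1.16-fold and 1.18-fold. Those of APOH were 0.01 ± 0.06 and 0.03 ± 0.06, within 1.10-fold and 1.12-fold. LCAT had 12 h signals of 164, 251, 78.4 and 285 in GPI-PLD cells, against 184, 381, 474 and 371 in LacZ cells. At 6 h LCAT had 120.0, 351, 179 and 338 in GPI-PLD cells, against 274, 266, 508 and 113 in LacZ cells. The groups overlapped at both times, and the differences of -0.72 ± 0.39 at 12 h (limma adjusted p = 0.715) and -0.15 ± 0.39 at 6 h left intervals reaching 2.90-fold and 1.95-fold. The median half-width of the 95% interval was 0.21 on the log2 scale for the 10 genes, against 0.35 over all tested genes.

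**Figure D2:**
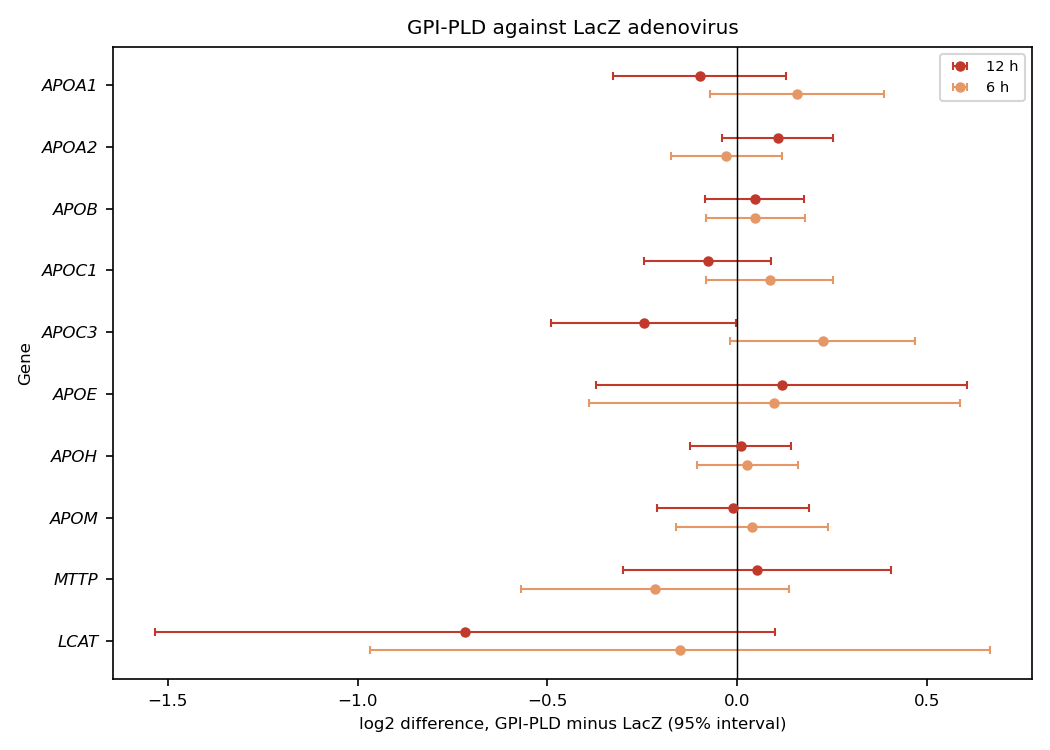
Log2 difference (horizontal axis) between GPI-PLD and LacZ virus with its 95% interval from limma for each gene (vertical axis), at 12 h (red) and 6 h (orange). APOB and APOH sit near 0 with the shortest bars, APOC3 stands at -0.25 at 12 h and 0.23 at 6 h, and LCAT has the longest bars.

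The second comparison was whether the virus difference itself differed between 12 h and 6 h. None of the 10 genes was called, against 0.0123% of all tested genes (1 gene). Limma without trend and robust called 0 of the 10 as well, and 0 of all genes. At an unadjusted p under 0.05, 1 of the 10 passed, against 610 of all genes. That gene was APOC3, whose virus difference was lower at 12 h by 0.47 ± 0.17 (log2 difference of differences -0.47, limma unadjusted p = 0.00952, adjusted p = 0.468). The other larger values were -0.57 ± 0.56 for LCAT (limma adjusted p = 0.846), 0.27 ± 0.24 for MTTP (0.819), -0.26 ± 0.16 for APOA1 (0.736) and -0.16 ± 0.11 for APOC1 (0.778).

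The third comparison set 12 h against 6 h within the cells of each virus. It uses the same 4 groups as the comparisons above, so its values are not independent of them. In GPI-PLD cells 1 of the 10 genes was called, and it was lower at 12 h. Over all tested genes 9.68% were called, 4.60% higher and 5.07% lower. At an unadjusted p under 0.05, 3 of the 10 passed in GPI-PLD cells (APOC1, APOC3 and MTTP), against 22.8% of all genes. In LacZ cells 0 of the 10 were called, against 6.89% of all tested genes, 3.64% higher and 3.25% lower. At an unadjusted p under 0.05, 1 of the 10 passed in LacZ cells (APOM), against 20.2% of all genes, and limma without trend and robust called 0 of the 10 and 417 of all 8102 genes. The arrays of both times did not overlap for 2 of the 10 genes in GPI-PLD cells, against 15.9% of all genes, and for 0 in LacZ cells, against 12.9%. The median difference of the 10 genes was 0.03 in GPI-PLD cells and 0.07 in LacZ cells, against 0.01 in each over all genes. Markers of other cells were also read at both times, and of these HBB did not overlap between the times in GPI-PLD cells. HBB was 502 to 789 at 12 h against 278 to 501 at 6 h in GPI-PLD cells, and 388 to 680.0 against 268 to 505 in LacZ cells. The summed endothelial signal, with 1 of 4 markers above the filter, was 525 to 745 at 12 h against 187 to 552 at 6 h in GPI-PLD cells, and 600.2 to 833 against 184 to 652 in LacZ cells. The summed macrophage signal, with 0 of 5 above the filter, was 455 to 1341 against 358 to 783 in GPI-PLD cells, and 335 to 643 against 373 to 762 in LacZ cells. The summed fibroblast signal, with 3 of 4 above it, was 1064 to 2103 against 1014 to 1561 in GPI-PLD cells, and 1141 to 1566 against 1335 to 1832 in LacZ cells. Their part in the differences below was not tested.

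APOC1 was the gene that fell. In GPI-PLD cells its signals were 7322, 7430, 7300 and 8136 at 12 h, against 9287, 9152, 8687 and 8991 at 6 h. All 4 arrays at 12 h lay below all 4 at 6 h. The log2 difference was -0.26 ± 0.08, or 1.20-fold lower (limma adjusted p = 0.0446). In LacZ cells the signals were 7333, 7775, 8584 and 8192 at 12 h, against 8313, 9189, 9253 and 7388 at 6 h. These overlapped, and the difference was -0.09 ± 0.08 (limma adjusted p = 0.579). The call in GPI-PLD cells stood close to the threshold and ended under 5 other processing choices: quantile normalization (limma adjusted p = 0.0698), 75th percentile scaling (0.0504), no filter (0.0621), averaged probe sets (0.0508) and no trend or robust option (0.103). It was lost as well without GPI-PLD 6 h replicates 1, 2, 3 or 4 (limma adjusted p = 0.103, 0.101, 0.0693 and 0.0851) and without GPI-PLD 12 h replicates 1, 2 or 3 (0.106, 0.0775 and 0.0938). It was also lost without LacZ 6 h replicate 1 (0.0513) and without LacZ 12 h replicates 2 or 4 (0.0535 and 0.0515), which enter only through the shared spread.

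In GPI-PLD cells, the second probe set of APOC1 gave 3629, 2778, 3500 and 3920 at 12 h, against 3685, 4290, 4380 and 4155 at 6 h. These overlapped through 12 h replicate 4 and 6 h replicate 1. The log2 difference was again -0.26, with a larger error of ± 0.13. In the limma fit of all 22215 probe sets, neither APOC1 probe set was called (adjusted p = 0.0863 for the brighter, 0.329 for the second). Within groups the 2 APOC1 probe sets did not follow each other from array to array (Pearson r = -0.06 over 16 arrays, deviations from group means), whereas those of APOA1 did (r = 0.89). Both APOC1 probe sets are of the type that may bind near-identical transcripts. So are both APOA1 probe sets, the second APOM probe set and the third APOE probe set. The reference table lists the pseudogene APOC1P1 beside APOC1 on chromosome 19, and it has no probe set of its own name here, so its share in the signal was not tested.

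**Figure D3:**
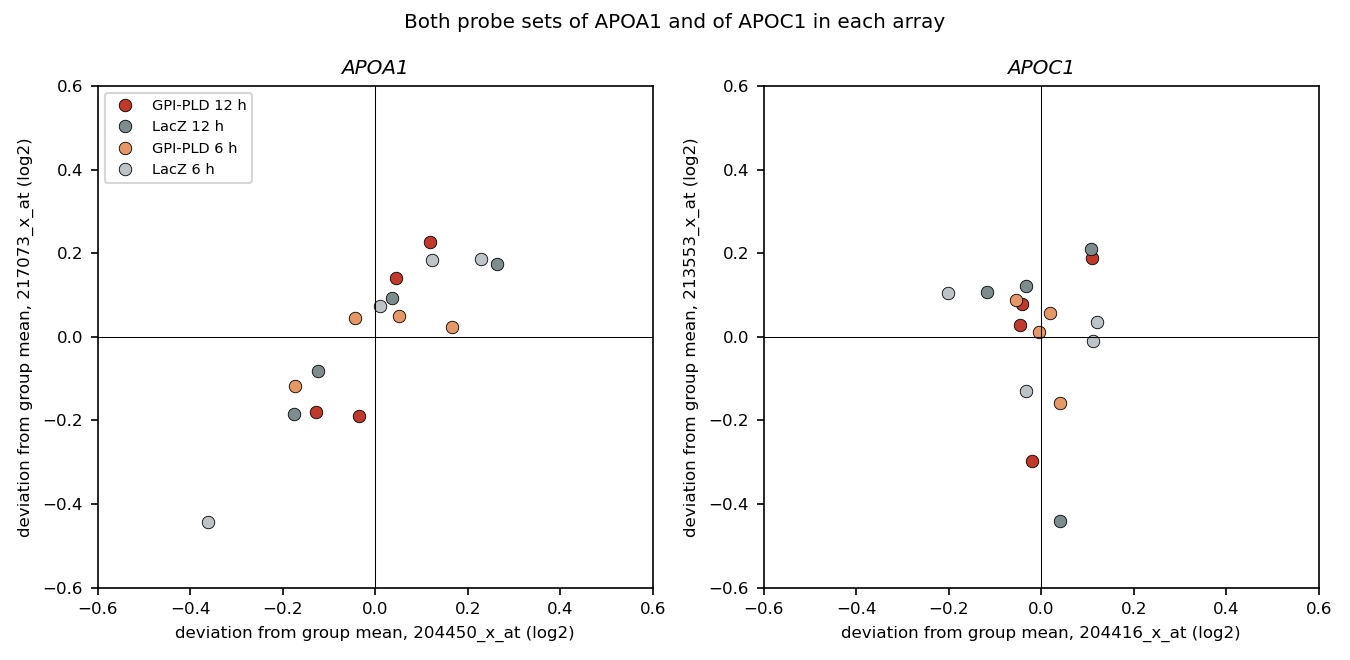
Deviation of each array from its group mean (log2) on the brighter probe set (horizontal axis) and the second probe set (vertical axis) of APOA1 and APOC1, colored by group. The 16 arrays fall along a line for APOA1 (r = 0.89) and show none for APOC1 (r = -0.06), where 1 LacZ 12 h array is far below its group on the second probe set.

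APOC3 had the next smallest p and did not pass. The GPI-PLD signals given above, 2604 to 3192 at 12 h against 3310 to 3862 at 6 h, did not overlap. The log2 difference was -0.37 ± 0.12, or 1.29-fold lower (limma adjusted p = 0.0519). The LacZ signals, 3197 to 3537 at 12 h against 2547 to 4240 at 6 h, had a difference of 0.11 ± 0.12 (limma adjusted p = 0.692). The 12 h arrays all lay within the range of the 6 h arrays there. Without LacZ 6 h replicate 3, the array at 4240, the GPI-PLD difference passed (limma adjusted p = 0.0118), and it also passed without the LacZ 6 h array numbered 4 (0.0327) and without the GPI-PLD 12 h array numbered 3 (0.0371). It did not pass when any other array was left out. It moved away from the threshold without GPI-PLD 6 h replicates 2 or 3 (limma adjusted p = 0.125 and 0.133). The same held without GPI-PLD 12 h replicates 1 or 4 (0.112 and 0.125). APOA1, which the reference table lists next to APOC3 on chromosome 11, had differences of -0.18 ± 0.11 in GPI-PLD cells and 0.07 ± 0.11 in LacZ cells. APOA4, on the other side of APOC3, had 0.26 and 0.28, and none of these was called. APOE, the neighbour of APOC1, had 0.02 ± 0.23 in GPI-PLD cells and 0.00 ± 0.23 in LacZ cells, and TOMM40 on its other side had 0.02 and 0.08.

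MTTP stood higher at 12 h, without passing. In GPI-PLD cells its signals were 839, 913, 845 and 614 at 12 h, against 537, 604, 574 and 640.0 at 6 h. Of the 12 h arrays 3 lay above all 6 h arrays and 1 lay among them. The difference was 0.40 ± 0.17 (limma adjusted p = 0.155). In LacZ cells MTTP was 806, 855, 737 and 672 at 12 h, against 716, 834, 477 and 807 at 6 h, a difference of 0.13 ± 0.17 within overlapping arrays.

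The windows upstream of APOC1 and of the MTTP starts are shown because APOC1 carries the 1 call and MTTP the largest difference between times in GPI-PLD cells. Among the RefSeq promoter entries used here (GRCh38.p14), 6 of the 10 genes were present (APOA2, APOC1, APOE, APOH, APOM and MTTP), with 9 starts in all. The 250 bases before each start were searched on both strands, and the last 150 are printed on the plus strand, 5′ to 3′. The APOC1 window is chr19:44914522-44914671, and the MTTP windows are chr4:99563980-99564129 for the first start and chr4:99574674-99574823 for the second. Capitals mark motif matches.
APOC1: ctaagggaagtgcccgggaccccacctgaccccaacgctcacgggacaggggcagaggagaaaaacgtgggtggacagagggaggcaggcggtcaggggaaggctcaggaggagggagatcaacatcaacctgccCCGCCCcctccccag
MTTP, first start: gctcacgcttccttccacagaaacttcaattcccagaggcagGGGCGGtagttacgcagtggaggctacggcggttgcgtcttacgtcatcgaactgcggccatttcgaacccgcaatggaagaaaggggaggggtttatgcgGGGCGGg
MTTP, second start: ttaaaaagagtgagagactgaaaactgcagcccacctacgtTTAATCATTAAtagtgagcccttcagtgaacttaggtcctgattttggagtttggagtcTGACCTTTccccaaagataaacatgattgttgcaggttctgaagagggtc

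The MTTP windows shared no match. The first held 2 matches to GGGCGG, the SP1 box, and none to the other motifs. The second held the HNF1 core TTAATNATT, matched once on each strand at overlapping positions, and the nuclear receptor site TGACCTTT, whose match ends 43 bases before the start. It also held TATAAA, ending 222 bases before the start and outside the printed stretch. The APOC1 window held 1 GGGCGG match, on the other strand, ending 10 bases before the start. Among the other entries, APOH held 1 HNF1 core match and the first of 3 APOE starts held 2 GGGCGG matches. Of 35116 RefSeq starts, 42.6% held GGGCGG, 1.17% held TTAATNATT, 1.05% held TGACCTTT and 10.7% held TATAAA in the same length. The C/EBP core TTGCNNAA (9.05% of starts) and the cyclic AMP element TGACGTCA (1.65%) had no match in the 9 windows. A match describes letters only, and the arrays did not measure the MTTP starts apart.

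None of the remaining genes passed between the times in either virus. In GPI-PLD cells APOM was 12299, 13630, 10789 and 11264 at 12 h, against 10606, 11618, 10589 and 9303 at 6 h. In LacZ cells APOM was 10919, 11574, 12670 and 13118 at 12 h, against 8955, 10097, 12152 and 9927 at 6 h. Both pairs overlapped, with 2 of the 4 arrays at 12 h above all arrays at 6 h in each virus. The differences were 0.19 ± 0.10 in GPI-PLD cells (limma adjusted p = 0.262) and 0.23 ± 0.10 in LacZ cells (limma adjusted p = 0.167). APOA2 had 0.08 ± 0.07 in GPI-PLD cells and -0.06 ± 0.07 in LacZ cells, APOB 0.07 ± 0.06 in each, and APOH 0.04 ± 0.06 and 0.05 ± 0.06. LCAT had -0.27 ± 0.39 in GPI-PLD cells and 0.30 ± 0.39 in LacZ cells.

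**Figure D4:**
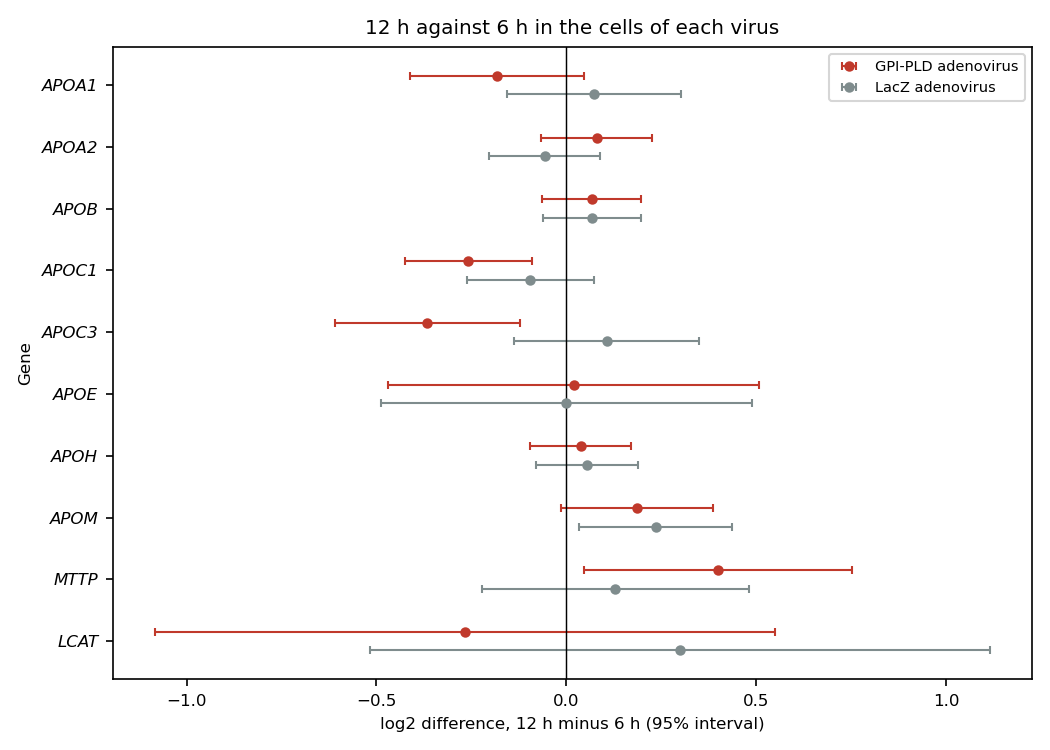
Log2 difference (horizontal axis) between 12 h and 6 h with its 95% interval from limma for each gene (vertical axis), in cells given GPI-PLD virus (red) and LacZ virus (gray). In GPI-PLD cells APOC1 (-0.26) and APOC3 (-0.37) lie below 0 and MTTP (0.40) above it, and in LacZ cells APOM (0.23) is the gene whose interval leaves out 0.

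When all 17 probe sets were tested among the 22215, none was called in any of the 6 comparisons, while 3.80% of all probe sets were called between the times in GPI-PLD cells and 2.73% in LacZ cells. At 6 h the second APOA1 probe set differed between the viruses by 0.26 ± 0.12 (limma unadjusted p = 0.0471), and at 12 h by -0.16 ± 0.12, the same directions as the brighter one. The second APOM probe set stood higher at 12 h in LacZ cells by 0.26 ± 0.08 (limma adjusted p = 0.0777), and in GPI-PLD cells by 0.08 ± 0.08. The third APOE probe set stood higher at 12 h in LacZ cells by 0.44 ± 0.14 (limma adjusted p = 0.128), where the brightest APOE probe set had 0.00. The second LCAT probe set, at 27.0 to 102.5, was below the brightness filter, so 16 of the 17 passed it.

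The scatter between arrays of one group was partly shared by the genes. Over the 45 pairs of genes, the correlation of deviations from group means across the 16 arrays had a median of 0.18, and 30 pairs were above 0. APOA1 with APOC1 and APOA2 with APOB each reached 0.74, APOA2 with APOC1 and APOC1 with LCAT 0.70, and APOA1 with APOM 0.69. MTTP ran the other way, below 0 with all 9 other genes, down to -0.57 with APOC1, -0.55 with APOC3 and -0.50 with APOA1. The points share their RNA sample, hybridisation and scaling, and these values are given as a description. No such value over all tested genes is given here, so the sharing is not shown to be particular to these genes. LacZ 6 h replicate 3 had 9 of the 10 genes above its group mean (median deviation 0.12), and LacZ 6 h replicate 4 had 2 of 10 above it (median -0.15). LacZ 12 h replicates 4 and 1 were split likewise, with 9 and 2 of the 10 above the mean.

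**Figure D5:**
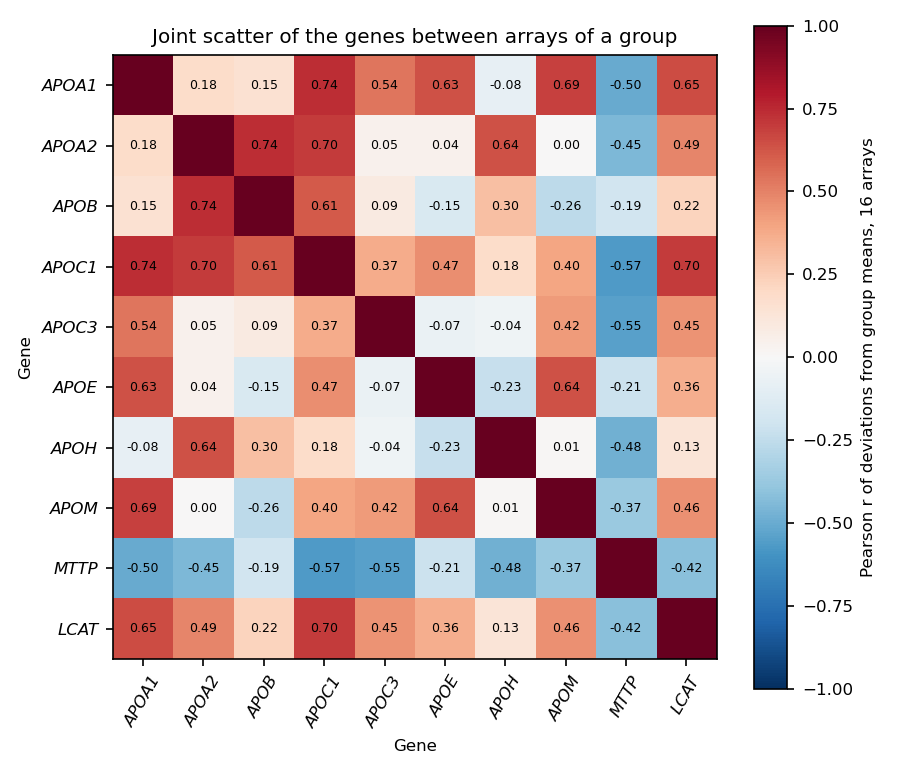
Pearson r between pairs of the 10 genes (both axes list the genes) of their deviations from the group mean, over 16 arrays, from -1 (blue) to 1 (red). The APOA1 with APOC1 and the APOA2 with APOB cells reach 0.74, and the MTTP row is blue throughout, down to -0.57.

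Among all tested genes outside the 10, the signals most like those of APOA1 over the 16 arrays were TADA3 (r = 0.88), ATP6V0D1 (0.86) and CYBA (0.86). Those most like APOB were SERPINA1 (0.86), which encodes the plasma protease inhibitor alpha-1-antitrypsin, SLC7A5 (0.86) and HTRA2 (0.83). With deviations from group means, r was 0.90, 0.84 and 0.87 for the APOA1 genes and 0.81, 0.81 and 0.75 for the APOB genes. The likeness was thus present in the scatter within groups. These are the highest r of all tested genes, so their size is partly set by the choice.

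Other genes of the pathway were counted in the same fit, and none of the genes on the 5 lists below was called by limma between the viruses at 12 h, at 6 h, in the mean of both times or in the difference between the times. The nearest was DGAT1, an enzyme that completes triglyceride synthesis, at 6 h, with means of 621 in GPI-PLD cells and 211 in LacZ cells (log2 difference 1.43 ± 0.30, limma adjusted p = 0.328). CIDEB, which aids the lipidation of very low density lipoprotein, had -0.44 ± 0.14 at 12 h (limma adjusted p = 0.497) and 0.38 ± 0.14 at 6 h (0.996), with arrays that did not overlap at either time. PON3, an esterase of high-density lipoprotein, had 0.30 ± 0.12 at 12 h (limma adjusted p = 0.638).

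Between 12 h and 6 h, the counts on the 5 lists are to be read against all tested genes, of which 9.68% were called in GPI-PLD cells (4.60% higher, 5.07% lower) and 6.89% in LacZ cells (3.64% higher, 3.25% lower), with medians of 0.01 in each. Each list had 1 to 4 called genes per virus, and whether any list differs from that background was not tested. Of the 28 tested genes on the list of lipoprotein assembly and secretion, 2 rose and 0 fell in GPI-PLD cells, and 2 rose and 0 fell in LacZ cells, with medians of 0.04 and 0.11. HSPA5, the main chaperone of the endoplasmic reticulum, averaged 39575 at 12 h and 25445 at 6 h in GPI-PLD cells (0.64 ± 0.08, limma adjusted p = 1.51e-05). In LacZ cells HSPA5 averaged 34437 at 12 h and 26672 at 6 h (0.36 ± 0.08, limma adjusted p = 0.00741). SEC23B, a coat protein of vesicles leaving the endoplasmic reticulum, rose by 0.38 ± 0.09 in GPI-PLD cells (limma adjusted p = 0.0102). DGAT1 rose by 1.16 ± 0.30 in LacZ cells (limma adjusted p = 0.0172), with means of 516 at 12 h and 211 at 6 h, and had -0.34 ± 0.30 in GPI-PLD cells (limma adjusted p = 0.547). Its LacZ difference and its virus difference at 6 h rest on the same low LacZ 6 h arrays. The difference between the viruses, -1.50 ± 0.42, was not called (limma adjusted p = 0.381).

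Of 10 other apolipoproteins and particle proteins tested, 1 fell in GPI-PLD cells and 1 rose in LacZ cells, with medians of 0.14 and 0.06. The first was PCYOX1, an oxidase carried on lipoproteins, with 516 at 12 h against 962 at 6 h (-0.85 ± 0.19, limma adjusted p = 0.00548). In LacZ cells PCYOX1 averaged 623 at 12 h and 681 at 6 h. Its difference between the viruses, -0.74 ± 0.27, was not called (limma adjusted p = 0.496). The gene that rose in LacZ cells was APOL6, with 594 at 12 h against 246 at 6 h (1.09 ± 0.27, limma adjusted p = 0.0138). Of 12 lipases, transfer proteins and their regulators, 1 rose in each virus, with medians of 0.08 in GPI-PLD cells and -0.05 in LacZ cells. In both it was ANGPTL8, which restrains lipoprotein lipase, at 1012 against 270 in GPI-PLD cells (1.73 ± 0.24, limma adjusted p = 3.07e-05) and 898 against 374 in LacZ cells (1.18 ± 0.24, limma adjusted p = 0.00295).

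Of 28 secreted plasma proteins, 3 rose and 1 fell in GPI-PLD cells and 2 rose in LacZ cells, with medians of 0.05 and 0.13. ITIH3, a heavy chain of the inter-alpha-trypsin inhibitors, rose by 0.58 ± 0.12 in GPI-PLD cells (limma adjusted p = 0.00188) and by 0.69 ± 0.12 in LacZ cells (0.000404). SERPINA3, an acute-phase protease inhibitor, rose by 0.40 ± 0.09 in GPI-PLD cells (limma adjusted p = 0.00761) and 0.47 ± 0.09 in LacZ cells (0.00251). SERPINC1, which encodes antithrombin, rose by 0.46 ± 0.10 in GPI-PLD cells (limma adjusted p = 0.00257). RBP4, the plasma carrier of retinol, fell by 0.22 on the log2 scale there (SE 0.07, limma adjusted p = 0.0378).

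Of 19 transcription factors known to regulate apolipoprotein genes, 3 rose and 1 fell in GPI-PLD cells and 4 rose in LacZ cells, with medians of 0.10 and 0.22. CEBPB, an activator of acute-phase genes in liver, averaged 23413 at 12 h against 7178 at 6 h in GPI-PLD cells (1.71 ± 0.08, limma adjusted p = 5.57e-12). In LacZ cells it averaged 23930 at 12 h against 5803 at 6 h (2.03 ± 0.08, limma adjusted p = 1.26e-13). CEBPG rose by 0.75 and 0.52 and NR0B2, a repressor of bile acid synthesis, by 0.36 and 0.41 in GPI-PLD and LacZ cells. RXRA, the shared partner of many nuclear receptors, averaged 825 at 12 h against 1378 at 6 h in GPI-PLD cells (-0.73 ± 0.18, limma adjusted p = 0.0114). PPARG rose by 0.67 ± 0.20 in LacZ cells (limma adjusted p = 0.0465). Whether these differences between times differ between the viruses was tested for each gene as the difference of virus effects above, and none of the genes on these lists was called there.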

How the data were processed

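RNA of HepG2 cells was measured on 16 Affymetrix arrays, 4 per combination of virus and time, grouped by the labels' descriptions. The deposited values are intensity values on a linear scale, MAS5 signals per the submitters' processing notes, with a 2% trimmed mean between 1000.35 and 1000.39 in each array. The scanner and further steps are not given in the sources used here. Array medians were 304.5 to 377.6, no value was at or below 0, and no rescaling was added. The number of arrays limits the precision. No pair of arrays shared more than 0.103% of values.

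A pseudocount of 63, the 20th percentile of the signals, was added before taking log2. Of 22283 probe sets, 68 were controls and 19065 had 1 gene symbol. The brightest probe set stood for its gene. Genes whose mean lay under the 40th percentile (signal 188) were left out of testing, and 8102 remained. Limma 3.58.1 (statmod 1.5.0, R 4.3.3) fitted 4 group means with eBayes, trend and robust, on 12 residual degrees of freedom with a median prior of 10.5. Calls used a Benjamini-Hochberg adjusted p under 0.05 over all tested genes. Errors after log2 differences are SE and after signals SD. Probe sets were also tested in a fit of all 22215.

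The fit was tested on simulated data of 8102 genes, with 50 genes changed at each size in the GPI-PLD 12 h arrays. The noise was drawn independently for each gene. For the viruses at 12 h it recovered 14% of changes of 1.25-fold, 46% at 1.5-fold, 76% at 2-fold and 86% at 3-fold, and made 2 false calls. For the times in GPI-PLD cells it recovered 10%, 42%, 74% and 86% at those sizes, and made 6 false calls. Recovery depends on how many genes change. These rates therefore do not give the share of real changes that the comparisons above would recover.

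The 10 genes and the lists were chosen with earlier results of these data known. The rule named the 10 in every comparison, and of each other list the called genes with the 4 smallest p, or the 2 with the smallest p where none was called, of which some are printed. It also named the 3 genes most correlated with APOA1 and with APOB, marker genes, neighbours and GPLD1. Gene neighbours and promoters of 250 bases came from RefSeq tables (GRCh38.p14), read with Python 3.11.15 and pandas 2.3.3, and plots used matplotlib 3.10.9. Alternatives were normalization, pseudocount, filter, probe set summary, moderation, array weights, arrays in the fit and leaving out each array.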

Additional observations from a re-analysis of the deposited data

Results flagged for a closer look

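Single arrays stood apart from the other 3 of their group in 7 of 68 tests over the 17 probe sets and 4 groups. In these, the gap to the nearest array, as a share of the group's range of log2 signal, was above Dixon's critical value. Chance alone gives about 1 in 20 such tests (5%). On the brightest probe set of APOC1, GPI-PLD 12 h replicate 4 was at 8136, against 7300 to 7430 in the others. It is the highest of the 4 arrays behind the lower APOC1 signal at 12 h, and without it the adjusted p of that difference was 0.0368 (limma). APOB in LacZ 12 h replicate 1 was at 49641, against 51302 to 51434 in the others. On the second APOC1 probe set, LacZ 12 h replicate 4 was at 2514, against 3706 to 3984. On the second APOA1 probe set, GPI-PLD 6 h replicate 4 was at 23759, against 26208 to 26724. On the second APOA2 probe set, GPI-PLD 12 h replicate 4 was at 82249, against 65901 to 66929. On the second APOM probe set, LacZ 12 h replicate 1 was at 10189, against 11102 to 11256, and LacZ 6 h replicate 3 at 10104, against 8762 to 8867.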

How the results depend on the processing

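The 10 genes had 0 calls between the viruses at 12 h, at 6 h, in the mean of both and in the difference between times, and 0 calls between times in LacZ cells, under every alternative run. Over all genes the alternatives gave 0 to 2 calls between the viruses at 12 h and at 6 h, and 0 in the mean of both. They gave 0 to 3 in the difference between times and 390 to 637 between times in LacZ cells. The count between times in GPI-PLD cells, 1 as reported, was 0 with quantile normalization, with 75th percentile scaling, without a filter, with probe sets of a gene averaged and without trend and robust. It was 2 with 4 times the pseudocount, with the filter at the 60th percentile, with array weights and with only the arrays compared, and 0 to 2 when an array was left out. Over all genes, 784 as reported, the counts were 543 to 832 when an array was left out. They were 747, 766, 710, 718 and 644 in the 5 alternatives with 0, and 794, 814, 832 and 689 in the 4 with 2. There APOC1 had adjusted p (limma) of 0.0698, 0.0504, 0.0621, 0.0508 and 0.103 in the 5 alternatives that lost its call, and APOC3 had 0.0497, 0.0384, 0.0296 and 0.0270 in the 4 that gained one. Filtering the probe sets at the 40th percentile, which tests fewer of them, gave 1 call between times in LacZ cells instead of 0, the second APOM probe set (0.26, limma adjusted p = 0.0492). For the other alternatives the cause was not tested.

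Of 1155 recomputed differences, 1094 kept direction and side of the threshold, 15 lost the call, 7 gained one and 39 turned sign, none of the 39 in a called value. Quantile normalization gave log2 differences of -0.0073 for APOB, -0.0659 for APOH and 0.00156 for APOM between viruses at 12 h, 0.0333 for APOE between times in LacZ cells and -0.0235 for APOH between times in GPI-PLD cells. The 75th percentile scaling gave APOM 0.0053 at 12 h. Averaged probe sets gave APOE 0.20 and array weights 0.016 between times in LacZ cells, and array weights gave APOE -0.0398 in GPI-PLD cells. Leaving out an array gave ranges between viruses at 12 h of -0.0196 to 0.338 for APOE, -0.039 to 0.0362 for APOH, -0.074 to 0.0378 for APOM and -0.0106 to 0.166 for MTTP. At 6 h the ranges were -0.0751 to 0.00601 for APOA2, -0.00977 to 0.275 for APOE, -0.0091 to 0.0577 for APOH, -0.0248 to 0.121 for APOM and -0.445 to 0.121 for LCAT. Between times they were -0.157 to 0.241 for APOE and -0.0107 to 0.064 for APOH in GPI-PLD cells, and -0.0466 to 0.1498 for APOA1, -0.102 to 0.122 for APOE and -0.0332 to 0.211 for MTTP in LacZ cells. LCAT has no value with the filter at the 60th percentile or with averaged probe sets, where it was below the filter. No paired analysis was possible because the labels give no replicate numbers. With 4 arrays a group, the brightest probe sets of LCAT and APOE have the widest limits.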

Other observations

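Of the genes listed beside one of the 10 on the reference table, FCER1G by APOA2, APOA4 by APOC3, TOMM40 by APOE, BAG6 and C6orf47 by APOM, and PSMB10 and SLC12A4 by LCAT were tested, and none was called by limma in any of the 6 comparisons. BAG6, a chaperone that lies beside APOM on chromosome 6, had the smallest adjusted p, 0.0689, between 12 h and 6 h in LacZ cells (log2 difference 0.37), where APOM had 0.23. In GPI-PLD cells BAG6 had 0.09 and APOM 0.19.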
